A study of Mus musculus with 12 samples.

Results

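The 10 genes described here encode enzymes and a chaperone that modify collagen chains and join them into fibres: Lox, Loxl1, Loxl2, Loxl3, Loxl4, Plod1, Plod2, Plod3, P4ha1 and Serpinh1. They were chosen by gene symbol from a table of 55421 genes, with earlier results of these data known. All 10 were among the 17376 genes that passed the filter on low counts. The libraries came from ventricular tissue of wild-type (WT) mice in 3 groups of 4. Con mice received saline and vehicle. Ang II mice were infused with the pressor peptide angiotensin II by a minipump under the skin of the back of the neck, and had vehicle. Ang II_FI mice had the same infusion together with Forsythoside I (FI), a compound injected into the peritoneum on alternate days at 50 mg/kg, from the day before infusion to day 14. No group received FI without angiotensin II. Strain, age and sex of the animals are not given in the labels, nor is it stated that each library is 1 mouse, so p-values measure the spread between these libraries. Whole ventricle mixes cell types, so in every comparison more cells of a type and more RNA per cell cannot be told apart.

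Collagen is built in the endoplasmic reticulum and finished outside the cell. Prolyl 4-hydroxylase, whose catalytic subunit P4ha1 encodes, hydroxylates prolines so that the triple helix is stable at body temperature. The lysyl hydroxylases Plod1, Plod2 and Plod3 hydroxylate lysines, and the product of Plod2 acts in the end regions of the chains, where it sets the type of cross-link formed later. HSP47, encoded by Serpinh1, is a collagen-specific chaperone that binds the folded procollagen helix. After secretion the lysyl oxidases, copper enzymes encoded by Lox and Loxl1 to Loxl4, turn lysines and hydroxylysines into reactive aldehydes that form the covalent cross-links of collagen and elastin. In the heart these steps are known mainly from fibroblasts, and cross-linking is linked to stiffness of the scarred or overloaded ventricle.

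The lysyl oxidases are related genes whose catalytic ends are alike, which is shown here because reads from such stretches could be assigned to the wrong family member. Below are the 63 coding bases around the copper-binding histidines of the catalytic domain in 4 of the 5 genes, read from the GENCODE M21 transcripts (GRCm38), 5′ to 3′ on the coding strand. Capitals mark the 34 bases that are identical in all 4. The stretch was not read for Lox, so the capitals do not cover that gene.
Loxl1: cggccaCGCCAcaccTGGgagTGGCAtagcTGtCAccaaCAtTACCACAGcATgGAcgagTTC
Loxl2: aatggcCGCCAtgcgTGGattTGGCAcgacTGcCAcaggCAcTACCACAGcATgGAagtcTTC
Loxl3: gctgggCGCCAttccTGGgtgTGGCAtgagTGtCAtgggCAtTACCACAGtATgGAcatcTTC
Loxl4: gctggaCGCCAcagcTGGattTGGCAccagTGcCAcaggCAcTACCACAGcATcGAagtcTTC
The stretch is coded across exons 3 and 4 of Loxl1, between bases 58293705 and 58294396 of chromosome 9 (minus strand), and across exons 10 and 11 of Loxl2, between 69682301 and 69689052 of chromosome 14 (plus strand). It crosses exons 10 and 11 of Loxl3, between 83049980 and 83050140 of chromosome 6 (plus strand), and exons 11 and 12 of Loxl4, between 42598792 and 42599914 of chromosome 19 (minus strand). When coding sequences were aligned, 65.1% to 73.1% of aligned bases, gaps left out, were identical between any 2 lysyl oxidases. The pairs with Lox were highest, at 72.1% to 73.1%, but covered only 1211 to 1228 aligned bases. The coding sequence of Lox has 1236 bases, and those of the other 4 have 1824 to 2331. The longest run of identical bases was 32, between Lox and Loxl1. Among the lysyl hydroxylases 65.8% to 69.3% of aligned bases were identical, and the longest run was 24, between Plod1 and Plod3.

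Libraries held 68874852 to 80624227 counts, and mitochondrially encoded genes took 29.1% to 38.8% of them. In every library 10 cardiomyocyte markers together took 38970 to 55420 CPM (counts scaled to the library total), and all 10 had counts. The library Ang II_FI 3 stood apart: 20 hepatocyte markers together took 28370 CPM there, against 27.3 to 92.5 CPM in the other 11 libraries, of which Ang II 3 was the highest. Of these markers 7 (Apob, Serpina1a, Serpina1c, Fgg, Tat, F2 and Ambp) had no count in any Con library. The edgeR values, shares, ratios and list medians that involve FI are also given without Ang II_FI 3. A gene was called where the quasi-likelihood test of edgeR gave p under 0.05 after Benjamini-Hochberg adjustment over all tested genes. Log2 fold changes are given ± SE, and group values as mean ± SD of 4 libraries.

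The comparison of Ang II with Con asks which of these genes respond to angiotensin II. The lysyl oxidases Lox, Loxl1 and Loxl2 rose, and the other 7 genes did not pass the threshold. Thus 3 of 10 were called higher and 0 lower, where 1.57% of all tested genes were called higher and 0.662% lower. Without Ang II_FI 3, which changes the shared estimate of spread, and by DESeq2 the member count was 4 with Plod3 added, beside 2.49% of genes higher and 1.37% lower in the former and 4.58% and 2.88% by the latter. The median log2 fold change of the 10 was 0.35, beside 0.005 over all tested genes. Of the 10, 4 (Lox, Loxl1, Loxl2 and Plod3) were higher in every Ang II library than in every Con library, as were 7.74% of all tested genes, and 0 were lower in every library, beside 4.56%.

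**Figure D1:**
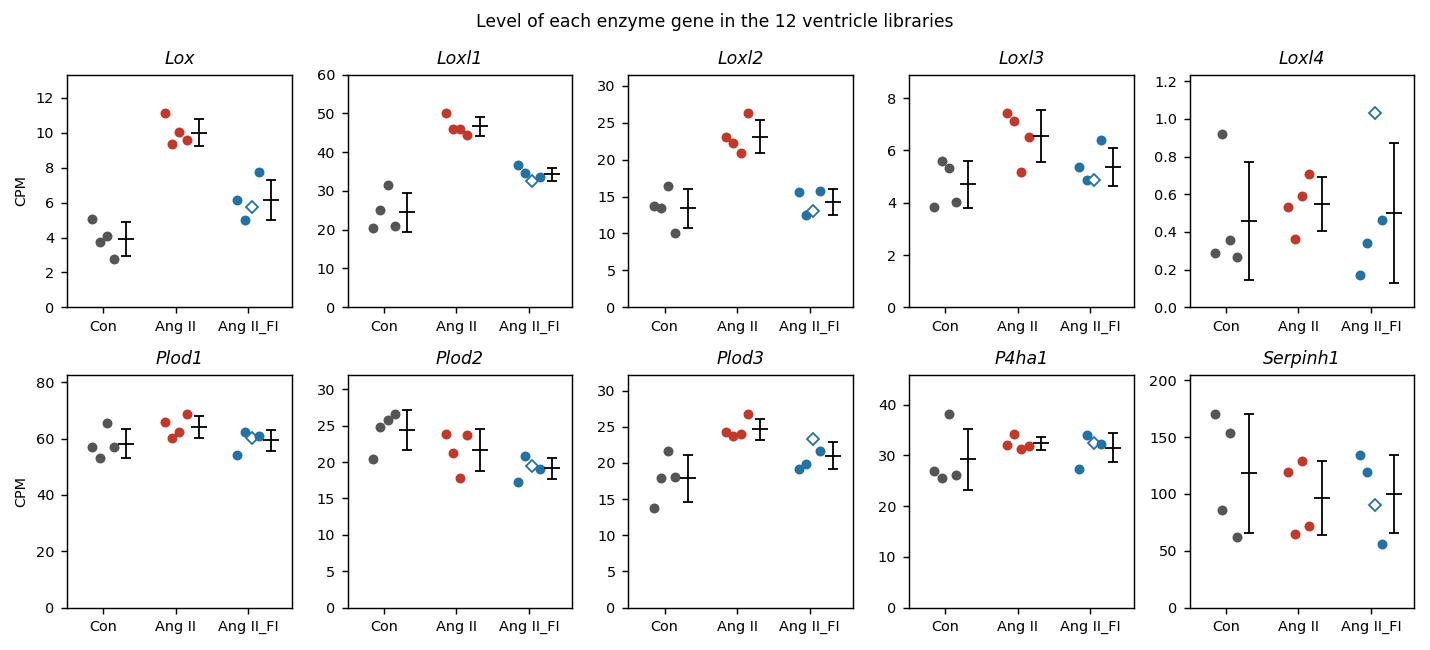
Level of each gene in CPM (y axis, from 0) in the Con, Ang II and Ang II_FI libraries; each point is 1 library, the open diamond is Ang II_FI 3, and the bar beside the points is the mean ± SD of 4 libraries. Lox, Loxl1 and Loxl2 form a separate high cluster in Ang II, Plod1 lies between 53.2 and 68.9 CPM throughout, and Serpinh1 is spread widely in every group.

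Lox encodes the founding lysyl oxidase (chromosome 18, 52516067 to 52529867). Its level was 5.07, 3.75, 4.09 and 2.76 CPM in Con 1 to 4, 11.1, 9.37, 10.03 and 9.56 CPM in Ang II 1 to 4, and 6.16, 5.02, 5.77 and 7.73 CPM in Ang II_FI 1 to 4. All Ang II values lay above all others, and the Con and Ang II_FI values overlapped at 1 library, Con 1. Lox rose with angiotensin II by 1.33 ± 0.20 on the log2 scale, or 2.51-fold (edgeR adjusted p = 0.00901), the largest fitted change of the 10. The call stayed when any of the 12 libraries was left out, with log2 fold changes of 1.19 to 1.51.

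Loxl1 encodes a lysyl oxidase best known for its part in elastic fibres (chromosome 9, 58287738 to 58313186). It measured 20.5, 25, 31.5 and 20.96 CPM in Con, 50.01, 46.1, 46.1 and 44.4 CPM in Ang II, and 36.6, 34.5, 32.6 and 33.6 CPM in Ang II_FI. The 3 groups did not overlap: each Ang II_FI library lay above every Con library and below every Ang II library. Loxl1 rose with angiotensin II by 0.92 ± 0.12 on the log2 scale (edgeR adjusted p = 0.00386), and the call stayed in all 12 fits with a library left out.

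Loxl2 encodes a lysyl oxidase with scavenger receptor domains that also cross-links basement membrane collagen (chromosome 14, 69609068 to 69695834). It measured 13.7, 13.4, 16.4 and 10.04 CPM in Con, 23.1, 22.2, 20.9 and 26.3 CPM in Ang II, and 15.7, 12.5, 13.02 and 15.8 CPM in Ang II_FI. The Ang II libraries stood above both other groups, which overlapped each other. Loxl2 rose with angiotensin II by 0.77 ± 0.15 on the log2 scale (edgeR adjusted p = 0.0228). The call was lost without Con 1, Con 2, Con 4, Ang II 2, Ang II 3 or Ang II 4, with log2 fold changes of 0.65 to 0.86 and edgeR adjusted p up to 0.0760 over the 12 fits.

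Loxl3, of the same structural group as Loxl2 (chromosome 6, 83034173 to 83052562), measured 3.84 to 5.59 CPM in Con, 5.16 to 7.42 CPM in Ang II and 4.85 to 6.41 CPM in Ang II_FI. Its groups overlapped, and its log2 fold change with angiotensin II was 0.46 ± 0.16 (edgeR adjusted p = 0.167). Loxl4 (chromosome 19, 42593982 to 42612813) was the least abundant, with 12 to 75 counts per library. It measured 0.269 to 0.922 CPM in Con and 0.363 to 0.707 CPM in Ang II, and its interval covered changes of either sign (log2 fold change 0.25, 95% interval -0.93 to 1.42, edgeR adjusted p = 0.886).

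**Figure D2:**
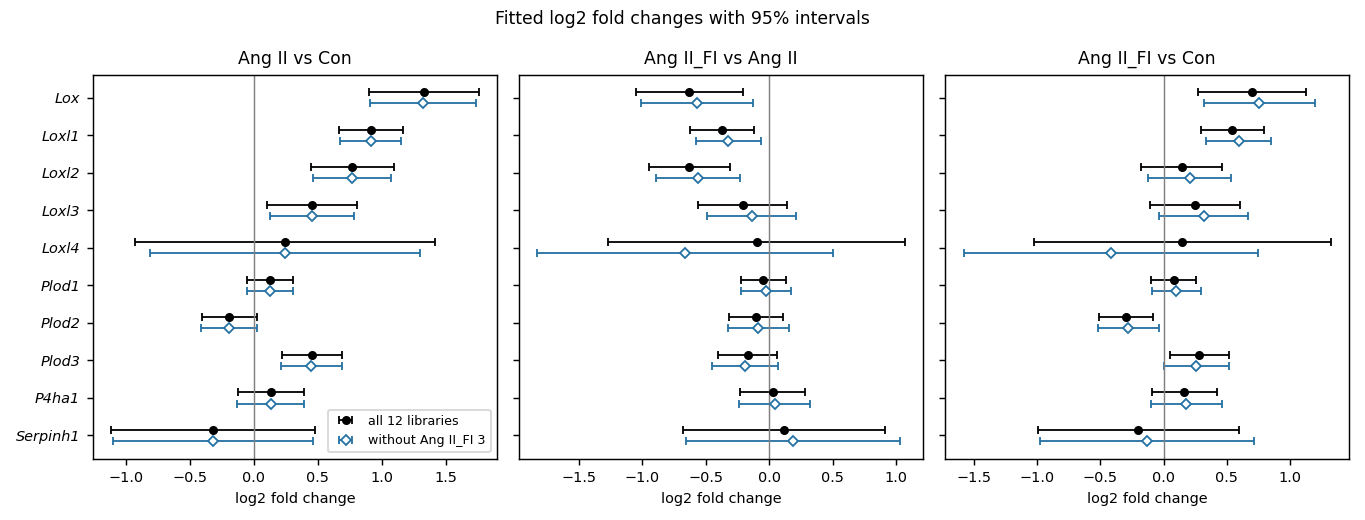
Fitted log2 fold change of each gene (x axis) with its 95% interval in the 3 comparisons, from all 12 libraries (filled circles) and without Ang II_FI 3 (open diamonds). The intervals of Lox, Loxl1 and Loxl2 lie to the right of 0 for Ang II against Con and to the left of 0 for Ang II_FI against Ang II, where no gene passed the threshold after adjustment.

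Among the lysyl hydroxylases the genes differed in direction, and none passed the threshold. Plod3, whose product also transfers sugars to hydroxylysine (chromosome 5, 136987019 to 136996648), measured 13.8, 18.0, 21.7 and 18.1 CPM in Con and 24.2, 23.7, 23.9 and 26.8 CPM in Ang II. Every Ang II library was thus above every Con library, with a log2 fold change of 0.45 ± 0.11 that lay just outside the threshold (edgeR adjusted p = 0.0516). It was inside without Con 3 (edgeR adjusted p = 0.0310) or without Ang II_FI 3 (0.0435), by DESeq2 (adjusted p = 0.00776) and by limma-voom (adjusted p = 0.0425). Plod1, which acts on the helical part of the chain (chromosome 4, 147909753 to 147936767), measured 53.2 to 65.4 CPM in Con and 60.1 to 68.9 CPM in Ang II. Its log2 fold change was 0.13 with a 95% interval of -0.05 to 0.30 (edgeR adjusted p = 0.495). Plod2 (chromosome 9, 92542223 to 92608428) measured 20.5, 24.8, 25.7 and 26.6 CPM in Con and 23.9, 21.2, 17.8 and 23.8 CPM in Ang II. It was 1 of 2 members with a fitted value below 0 (-0.19, 95% interval -0.40 to 0.02, edgeR adjusted p = 0.363), and its groups overlapped.

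P4ha1 (chromosome 10, 59323296 to 59373304) measured 26.9, 25.4, 38.2 and 26.2 CPM in Con and 32.1, 34.2, 31.3 and 31.9 CPM in Ang II. Con 3 was the highest of all 12 libraries, and the log2 fold change was 0.14 (95% interval -0.12 to 0.39, edgeR adjusted p = 0.644). Serpinh1 (chromosome 7, 99345376 to 99353239) measured 171, 86.2, 154 and 62.1 CPM in Con, 119, 64.4, 129 and 72.1 CPM in Ang II, and 134, 119, 90.1 and 55.8 CPM in Ang II_FI. The groups covered nearly the same range, and the log2 fold change with angiotensin II was -0.32 (95% interval -1.11 to 0.48, edgeR adjusted p = 0.750).

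Serpinh1 varied more within groups than the other abundant members. The pooled SD of log2 CPM within groups was 0.592 for Serpinh1, while the median was 0.144 over 1484 tested genes within 2-fold of its mean level, and 49 of these had a larger SD. For Plod1 that SD was 0.102 and for P4ha1 0.180. The highest library was 2.75 times the lowest in Con, 2.01 times in Ang II and 2.40 times in Ang II_FI. The range in Ang II_FI is the same without Ang II_FI 3, which held neither end. Serpinh1 is also known as a heat shock gene, and a list of 16 heat shock chaperones was added after its spread had been seen. Over the 12 libraries, deviations of log2 level from the group means correlated with those of Serpinh1 at a median r of -0.000755 (range -0.42 to 0.75, highest for Chordc1), and for 12 chaperones of the endoplasmic reticulum at a median of 0.17 (-0.24 to 0.50). Both lists thus held genes with positive and with negative values, and their part in the spread was not tested. In Con and Ang II_FI the highest Serpinh1 value was in library 1 and the lowest in library 4. In Ang II these were libraries 3 and 2. A fit with a term for the replicate number gave an SE of 0.239 for Ang II against Con, beside 0.366 without it. What the numbers stand for is not stated, and their part in the spread was not tested.

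Levels can be compared between genes only per length, here as RPKM (CPM per kilobase of merged exons). In Con, Serpinh1 was the most abundant at 48.4 ± 21.4 RPKM. Plod1 (8.60 ± 0.76), Loxl1 (7.43 ± 1.54) and P4ha1 (7.10 ± 1.47 RPKM) followed with overlapping ranges, then Plod2 (4.53 ± 0.51) and Plod3 (3.96 ± 0.72 RPKM), also overlapping. Below them came Loxl2 (2.48 ± 0.48), the overlapping pair of Loxl3 (1.02 ± 0.19) and Lox (0.820 ± 0.20), and Loxl4 (0.109 ± 0.074 RPKM). In Ang II, Loxl1 reached 14.2 ± 0.72 RPKM, above the range of Plod1 (9.50 ± 0.58), and Lox reached 2.10 ± 0.16 RPKM, above the range of Loxl3 (1.42 ± 0.22).

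**Figure D3:**
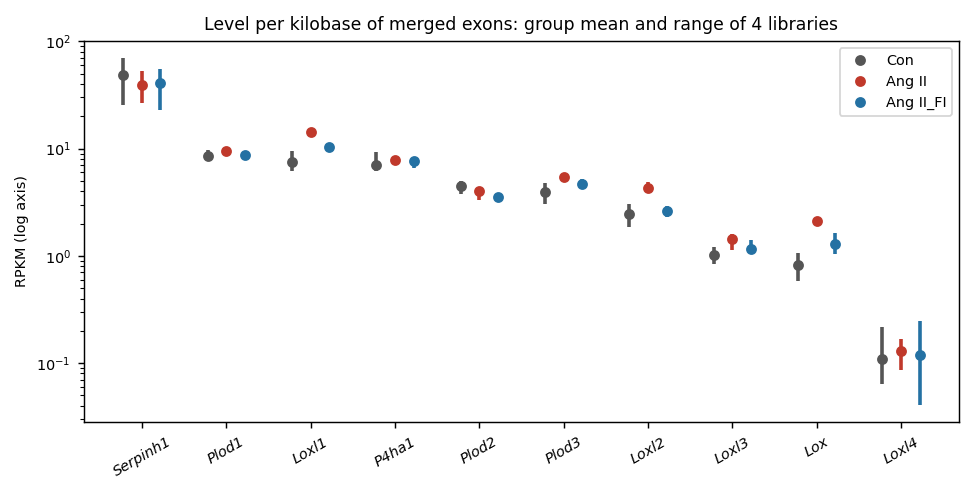
Level of each gene per kilobase of merged exons (RPKM, log axis), ordered by the mean in Con; points are group means and vertical lines run from the lowest to the highest of 4 libraries. Serpinh1 is highest in every group, and Loxl1 moves from the range of Plod1 and P4ha1 in Con to above both in Ang II.

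As a family on this scale, the 5 lysyl oxidases summed to 11.9 ± 2.16 RPKM in Con, 22.1 ± 1.00 in Ang II and 15.6 ± 0.86 in Ang II_FI (15.9 ± 0.82 without Ang II_FI 3). Loxl1 made up 62.5% ± 3.4 of that sum in Con, 64.1% ± 1.9 in Ang II and 66.7% ± 3.0 in Ang II_FI (66.7% ± 3.6 without that library). The share of Loxl2 was 20.9% ± 1.95 in Con, 19.4% ± 1.90 in Ang II and 16.8% ± 1.19 in Ang II_FI (17.0% ± 1.38 without that library). Every Ang II_FI library was below every library of the other groups, narrowly so against Ang II (highest 18.0%, lowest 18.2%). The share of Loxl3 was 8.65% ± 1.01 in Con and 6.43% ± 0.81 in Ang II, and the 2 ranges did not overlap. The 3 lysyl hydroxylases summed to 17.1 ± 1.67 RPKM in Con, 19.0 ± 1.28 in Ang II and 17.0 ± 1.04 in Ang II_FI (16.8 ± 1.14 without that library). Within them Plod2 held 26.5% ± 2.0 in Con, 21.1% ± 1.8 in Ang II and 20.9% ± 0.82 in Ang II_FI, and Plod3 23.1% ± 2.2, 28.8% ± 0.98 and 27.4% ± 1.7. Without Ang II_FI 3 these shares in Ang II_FI were 21.1% ± 0.90 and 26.8% ± 1.4. For Plod2 every Con library was above every library of the other groups. For Plod3 every Con library was below them, narrowly so against Ang II_FI (highest Con 24.98%, lowest Ang II_FI 25.21%). These shares are descriptions with no test and with no background over other genes.

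The comparison of Ang II_FI with Ang II asks what FI changes under angiotensin II, and it shares the Ang II libraries with the comparison above. None of the 10 members was called in either direction, nor was any other gene: 0% of tested genes were called higher and 0% lower by edgeR, whereas 1729 had an unadjusted p under 0.05. DESeq2 called 12 genes higher (0.0670%) and 36 lower (0.201%), and limma-voom called 0. Lox, Loxl1, Loxl2 and Plod3 were lower in every Ang II_FI library than in every Ang II library, as were 5.12% of all tested genes. No member was higher in every library, beside 0.858% of genes. Without Ang II_FI 3 the same 4 members stayed below, beside 9.99% of all tested genes, with 0 above, beside 1.32%, and edgeR called 0 members and 0.00565% of genes lower. For Plod3 the groups overlapped when CPM were divided by the TMM scaling factors, with or without that library.

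The 3 lysyl oxidases called higher with angiotensin II had negative values with FI. They were picked by that call, and both comparisons use the same Ang II libraries, which favours a negative sign here. Log2 fold changes were -0.63 ± 0.19 for Lox, -0.37 ± 0.12 for Loxl1 and -0.63 ± 0.15 for Loxl2 (edgeR adjusted p = 0.411 for each). No gene had a smaller adjusted p, but others such as Col1a1 and Eln shared this value, so it does not set the 3 apart. Without Ang II_FI 3 the log2 fold changes were -0.57 ± 0.20, -0.32 ± 0.12 and -0.56 ± 0.15. Loxl2 passed the threshold by DESeq2 (-0.63, adjusted p = 0.0432) and was the only member to do so. Loxl3 was at -0.21 ± 0.16 (edgeR adjusted p = 0.694), and at -0.14 ± 0.16 without Ang II_FI 3.

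Hydroxylases and chaperone lay closer to 0 with FI. Plod1 measured 54.1 to 62.3 CPM in Ang II_FI (log2 fold change against Ang II -0.05, 95% interval -0.23 to 0.13), Plod2 17.3 to 20.8 CPM (-0.11, -0.32 to 0.10) and Plod3 19.1 to 23.3 CPM (-0.17, -0.40 to 0.06). P4ha1 measured 27.4 to 34.0 CPM (0.03, -0.23 to 0.28), and the interval of Serpinh1 was wide (0.12, -0.68 to 0.91). Leaving out Ang II_FI 3, these log2 fold changes were -0.03 ± 0.09 for Plod1, -0.09 ± 0.11 for Plod2, -0.19 ± 0.12 for Plod3, 0.04 ± 0.13 for P4ha1 and 0.19 ± 0.39 for Serpinh1. Loxl4 measured 0.172, 0.340, 1.03 and 0.463 CPM in Ang II_FI 1 to 4, so the highest value was in the library with hepatocyte transcripts. Its log2 fold change against Ang II was -0.10 with that library and -0.66 without it, and neither passed the threshold (edgeR adjusted p = 0.972 and 0.779).

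Against Con, which both treated groups share, the Ang II_FI libraries had 1 of 10 members called higher and 0 lower, where 0.719% of all tested genes were called higher and 0.259% lower. DESeq2 called 2 members higher, Lox and Loxl1, and 0 lower, beside 3.10% and 2.34% of genes. The edgeR member was Loxl1, with a log2 fold change of 0.54 ± 0.12 (edgeR adjusted p = 0.04998). It was also the 1 member higher in every Ang II_FI than in every Con library, as were 3.52% of all tested genes (4.76% without Ang II_FI 3), and 0 members were lower in every library, beside 6.06% (11.1% without Ang II_FI 3). The call of Loxl1 was at the threshold: it was lost in 10 of the 12 fits with a library left out, all but those without Con 3 and without Ang II_FI 3, with log2 fold changes of 0.47 to 0.67. Without Ang II_FI 3 it was 0.59 ± 0.12 (edgeR adjusted p = 0.0329), beside 0.932% of genes called higher and 0.311% lower. Lox was at 0.70 ± 0.20 (edgeR adjusted p = 0.105, DESeq2 adjusted p = 0.0222), Loxl2 at 0.14 ± 0.15 (edgeR adjusted p = 0.678), Plod3 at 0.28 ± 0.11 (0.207) and Plod2 at -0.30 ± 0.10 (0.149). In the fit without Ang II_FI 3 they were at 0.76 ± 0.20 for Lox, 0.21 ± 0.15 for Loxl2, 0.26 ± 0.12 for Plod3 and -0.28 ± 0.11 for Plod2, and none passed (edgeR adjusted p of 0.0954, 0.562, 0.319 and 0.240).

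To set the enzymes against their substrate, each count was divided by the summed counts of Col1a1, Col1a2 and Col3a1, the chains of the fibrillar collagens I and III. That sum was 252 ± 46.8 CPM in Con, 492 ± 75.3 in Ang II and 304 ± 18.6 in Ang II_FI (312 ± 9.59 without Ang II_FI 3). Per 1000 collagen counts there were 97.0 ± 6.47 counts of Loxl1 in Con and 96.2 ± 13.02 in Ang II, and 113 ± 4.03 in Ang II_FI (112 ± 3.64 without Ang II_FI 3). Loxl2 gave 53.1 ± 4.34, 47.5 ± 5.10 and 46.8 ± 4.04, and Lox 15.7 ± 4.18, 20.6 ± 2.58 and 20.3 ± 3.42. Without that library Loxl2 gave 46.8 ± 4.94 and Lox 20.2 ± 4.18 in Ang II_FI. The Con and Ang II ranges of these 3 genes overlapped.

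For the hydroxylases these ratios were lower in Ang II, as they were for most tested genes when set against a collagen sum that was higher there. Plod2 had 88.7, 94.2, 82.4 and 131 counts per 1000 collagen counts in Con 1 to 4, 41.2, 48.1, 42.6 and 45.0 in Ang II 1 to 4, and 53.7, 68.7, 69.7 and 61.1 in Ang II_FI 1 to 4. The 3 groups did not overlap. Plod1 went from 235 ± 36.2 in Con to 132 ± 14.5 in Ang II and 196 ± 20.6 in Ang II_FI, and P4ha1 from 116 ± 13.9 to 67.0 ± 10.8 and 104 ± 13.9. The Ang II_FI means without Ang II_FI 3 were 61.2 ± 7.51 for Plod2, 189.6 ± 19.4 for Plod1 and 100.2 ± 14.0 for P4ha1. Of the members, 5 (Loxl3, Plod1, Plod2, Plod3 and P4ha1) had every Ang II ratio below every Con ratio, as had 64.7% of all tested genes. Conversely 0.213% of tested genes had every Ang II ratio above every Con ratio, and no member did. Between Ang II and Ang II_FI, Plod1, Plod2, Plod3 and P4ha1 had every FI ratio above every Ang II ratio, as had 47.9% of all tested genes, and none had every ratio below, as 0.109% had. Against Con, the ratio of Plod2 in Ang II_FI was lower in every library, as for 13.4% of genes, and that of Loxl1 was higher in every library, as for 0.771%. The same members did not overlap without Ang II_FI 3, beside 49.9% of genes above and 0.276% below Ang II, and 1.05% above and 30.2% below Con. Shares of this size make the ratios of the hydroxylases a description of these genes and nothing particular to them.

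**Figure D4:**
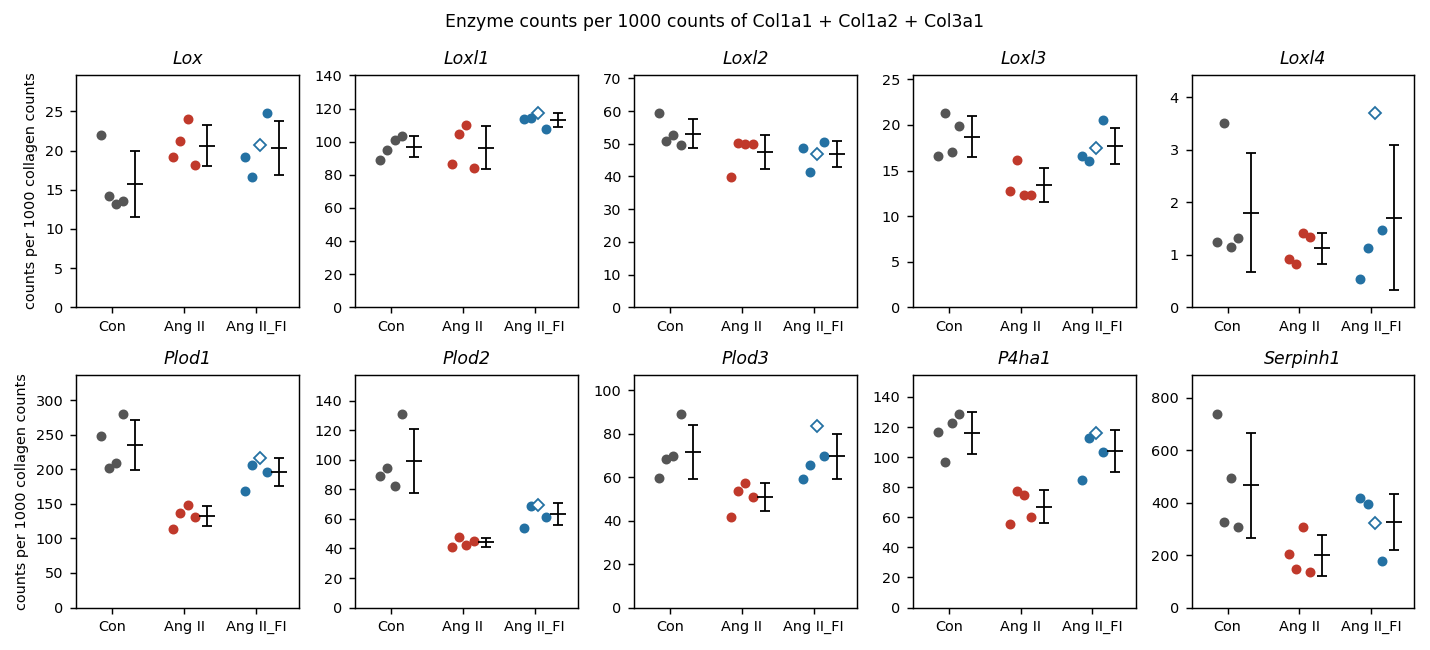
Counts of each gene per 1000 summed counts of Col1a1, Col1a2 and Col3a1 (y axis, from 0) in each library, with the mean ± SD of 4 libraries beside the points; the open diamond is Ang II_FI 3. Loxl1 and Loxl2 have overlapping ratios in Con and Ang II, whereas Plod1, Plod2 and P4ha1 are lower in Ang II than in Con in every library.

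Other genes of the pathway were taken from lists that do not include the 10 members. Partners in the endoplasmic reticulum (prolyl 3-hydroxylases, the other prolyl 4-hydroxylase subunits, glycosyltransferases and folding factors) gave 0 of 14 tested genes called in any comparison, with a median log2 fold change of 0.08 for Ang II against Con. The smallest p-values there were those of P3h3, a prolyl 3-hydroxylase (0.56 ± 0.16, edgeR adjusted p = 0.0848), P3h4 (-0.38 ± 0.11, 0.0892) and Ppib, a prolyl isomerase of the collagen folding complex (0.28 ± 0.11, 0.211). Genes that act outside the cell gave 4 of 15 called higher and 0 lower, beside 1.57% and 0.662% of all tested genes. Their median was 0.57. Among them Adamts2, the procollagen N-proteinase, rose by 0.98 ± 0.13 (edgeR adjusted p = 0.00553), Pcolce, an enhancer of C-terminal procollagen cleavage, by 0.65 ± 0.09 (0.00712) and Sparc, a collagen-binding matrix protein, by 0.87 ± 0.16 (0.0187). With FI these 3 were at -0.41 ± 0.13, -0.32 ± 0.09 and -0.45 ± 0.16, and 0 of 15 passed. When Ang II_FI 3 was left out they were at -0.36, -0.29 and -0.36. The 3 were named by their p for Ang II against Con, and both comparisons use the same Ang II libraries. That choice favours negative values with FI.

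Of the 9 tested substrates, fibrillar collagen chains and elastin, 6 were called higher with angiotensin II and 0 lower. Among all tested genes 1.57% were called higher and 0.662% lower. The median of the 9 was 0.84, beside 0.005 over all tested genes, and 2 of the 9 had fitted values below 0. The 3 with the smallest p were Col1a1, Eln and Col1a2, at 0.98 ± 0.10, 1.68 ± 0.19 and 0.84 ± 0.10. Lox, Plod2 and P4ha1 are known targets of the hypoxia-inducible factors. Of 13 other such targets 1 was called higher and 0 lower, beside 1.57% and 0.662% of all tested genes. It was Ndrg1, which rose by 0.43 ± 0.08 (edgeR adjusted p = 0.0260). The next by p, Egln3 and Hk2, were at -0.41 ± 0.15 and -0.30 ± 0.14, and neither passed (edgeR adjusted p = 0.173 and 0.292). The median of the list was 0.089. Of 12 chaperones of the endoplasmic reticulum 0 were called, with a median of -0.21 and the smallest p for Canx (-0.33 ± 0.08, edgeR adjusted p = 0.0694), Dnajb9 (-0.20 ± 0.09, 0.266) and Manf (-0.32 ± 0.14, 0.281). With FI the list medians were 0.027 for the partners in the endoplasmic reticulum, -0.30 for the genes outside the cell, -0.48 for the substrates, 0.033 for the hypoxia targets and 0.18 for the chaperones, beside 0.018 over all tested genes. These medians without Ang II_FI 3 were -0.002, -0.29, -0.43, 0.08 and 0.10, beside -0.002, so the sign for the partners turned and the values for the hypoxia targets and chaperones moved by over 1.5 times.

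Markers of the cell types that ventricle can hold are given beside these results as summed CPM and counts of called genes, for lists of 10 markers that all had counts in every group. Resting fibroblast markers summed to 1710 to 2283 CPM in Con, 2272 to 2557 in Ang II and 2118 to 2255 in Ang II_FI (2188 to 2255 without Ang II_FI 3). Activated fibroblast markers summed to 180 to 292, 362 to 384 and, in Ang II_FI 1, 2 and 4, 248 to 259. Their sum was 577 in Ang II_FI 3, the library with hepatocyte transcripts, and the source of that value was not tested. Of each of these lists 4 were called higher with angiotensin II and 0 lower, beside 1.57% and 0.662% of all tested genes. Macrophage markers summed to 357 to 474 CPM in Con, 568 to 653 in Ang II and 499 to 594 in Ang II_FI (541 to 594 without Ang II_FI 3). Of them 5 were called higher with angiotensin II and 0 lower. The sums of Con and Ang II overlapped for resting fibroblasts and for endothelial cells, whose markers summed to 607 to 951, 842 to 1115 and 655 to 793 CPM (672 to 793), with 0 called. Smooth muscle and pericyte markers summed to 1946 to 2202, 2315 to 2454 and 2118 to 2397 CPM (2282 to 2397), with 1 called higher. Cardiomyocyte markers summed to 40140 to 55420 CPM in Con, 38970 to 43530 in Ang II and 39540 to 49440 in Ang II_FI, with 0 called. Of these 8 of 10 had fitted values below 0 with angiotensin II and 10 of 10 above 0 with FI, beside 8579 and 9219 of 17376 tested genes. Other lists were also one-sided. For resting fibroblast, activated fibroblast, macrophage, endothelial, and smooth muscle and pericyte markers, 8, 9, 10, 8 and 8 of 10 were above 0 with angiotensin II. With FI 8, 8, 9, 10 and 9 of 10 were below 0. These counts of signs are given for all 12 libraries only. The medians of these lists against Ang II were -0.244, -0.337, -0.113, -0.33 and -0.224. Without Ang II_FI 3 they were -0.162, -0.405, -0.016, -0.285 and -0.214, so that of macrophage markers lay near 0. For cardiomyocyte markers the median was 0.141, and 0.206 without that library. No marker of these 6 lists was called between Ang II_FI and Ang II. The part of these cells in the values of the 10 genes was not tested.

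For the 3 called members, the tested genes whose log2 CPM was most like theirs over the 11 libraries without Ang II_FI 3 were sought among the 13032 whose mean reached 1 CPM. The libraries share the group structure, so these are descriptions. Lox was closest to Thbs1 (r = 0.98), Vcan (0.96) and Tyro3 (0.95). Loxl1 was closest to Arpc1b (0.98), Col1a1 (0.98) and Fam171a2 (0.98). Loxl2 was closest to Sh3pxd2b (0.97), Col3a1 (0.96) and Col5a2 (0.96). Among the members themselves r was 0.88 for Lox with Loxl1, 0.90 for Lox with Loxl2 and 0.88 for Loxl1 with Plod3, against -0.31 for Loxl1 with Plod2 and -0.06 for Loxl1 with Serpinh1.

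Some gene models overlap others, and no source used here gives the strand setting of the counting. Reads in a shared part therefore cannot be told apart. Loxl3 shares 535 exonic bases, 11.6% of its exon length, with Htra2 on the opposite strand, and Plod3 shares 538, or 11.9%, with others, Znhit1 on the opposite strand among them. Htra2 and Znhit1 themselves had log2 fold changes of -0.25 ± 0.15 and -0.08 ± 0.11 for Ang II against Con. For Loxl2 and Plod2 the shared part was 5.70% and 6.42%, and for Lox 0.628%. Loxl1, Loxl4, Plod1, P4ha1 and Serpinh1 had no exonic overlap in this annotation.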

How the data were processed

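The authors deposited raw counts per gene, 1 column for each of the 12 libraries. The submitters' processing notes name build GRCm38, the aligner HISAT, DESeq 1.8.3 and, for counting, featureCounts 1.5.0-p3. Strand setting, multimapping and annotation release: not given in the sources used here. Per the labels' protocols, total RNA entered a SMARTER mRNA library kit. Groups came from the sample titles. Genes were filtered with filterByExpr, scaled by TMM and tested by the quasi-likelihood test of edgeR 4.0.16 under R 4.3.3. The model had a mean for each of the 3 groups, used the 12 libraries together and had no covariate, with Benjamini-Hochberg adjustment over 17376 genes. The fits were first tested on simulated data. Other settings were DESeq2 1.42.0, limma-voom (limma 3.58.1), other scalings and filters, fits of 2 groups, a replicate block, and each library left out. CPM use the library total, and 3 counts correspond to 0.0372 to 0.0436 CPM, a floor for counting error alone. Coordinates, exon lengths and coding sequences came from GENCODE M21 (GRCm38), and a coding sequence is the longest open reading frame of any coding transcript. Likeness used log2(CPM + 0.05). The genes named are all 10 members, the 3 smallest p of each pathway list for Ang II against Con, and the 3 genes most like each called member. The members and lists were chosen with earlier results of these data known, and the heat shock list and the ratios and shares without Ang II_FI 3 were added after the values were seen.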

Additional observations from a re-analysis of the deposited data

Results flagged for a closer look

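In groups of 4 libraries, 11 of 87 group and measure combinations had a library set far from the other 3 (Dixon's test at 95%), where chance flags about 1 in 20. The combinations are not independent, since a gene enters both as CPM and as a ratio. Loxl4 was high in Con 2, at 0.922 CPM against 0.269 to 0.358 in the others, and likewise at 3.51 per 1000 fibrillar collagen counts (1.147 to 1.324). P4ha1 was high in Con 3, at 38.2 CPM against 25.5 to 26.9, and Plod3 in Ang II 4, at 26.8 CPM against 23.7 to 24.2. Per 1000 collagen counts, Lox was high in Con 1 (21.95 against 13.1 to 14.3), Loxl2 low in Ang II 1 (39.9 against 49.8 to 50.4) and Loxl3 high in Ang II 2 (16.1 against 12.3 to 12.8). Summed hepatocyte markers were 28370 CPM in Ang II_FI 3 (34.8 to 37.3 in the others) and 92.5 CPM in Ang II 3 (34.5 to 42.6). Summed activated fibroblast markers were 577 CPM in Ang II_FI 3 (248 to 259), the library with hepatocyte transcripts, and the source of that value was not tested. Summed smooth muscle and pericyte markers were 2454 CPM in Ang II 4 (2315 to 2332).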

How the results depend on the processing

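Of 600 values of the 10 genes under 20 alternatives, 574 kept the side of the threshold of the reported fit, 20 lost a call, 6 gained a call and 0 reversed a called direction. Lost calls were those of Loxl2 (Ang II against Con) and Loxl1 (Ang II_FI against Con). For Ang II against Con, where 273 genes were higher and 115 lower, the counts were 152 and 38 with no filter on low counts, 685 and 431 by DESeq2, 105 and 19 with a replicate block, and 208 lower in a fit of the 2 groups alone. With Ang II 3 and Ang II_FI 3 both left out, 66 were lower. For Ang II_FI against Ang II, DESeq2 gave 12 higher and 36 lower genes and 1 lower member, and leaving out that same pair gave 2 lower genes. For Ang II_FI against Con, where 125 were higher and 45 lower, the counts were 50 and 14 with no filter, 479 and 362 by DESeq2, 35 and 13 with 2 groups and 51 and 10 with the replicate block. The 1 member higher there became 2 by DESeq2 and 0 with no filter, with 2 groups or with the block. With each library left out, higher and lower genes ran from 79 to 441 and from 11 to 242 for Ang II against Con, from 0 to 1 and from 0 to 1 for Ang II_FI against Ang II, and from 35 to 165 and from 5 to 60 for Ang II_FI against Con. For Ang II against Con the higher count moved over 1.5-fold without Con 1, Con 2, Con 4, Ang II 2, Ang II 3, Ang II 4 (79 to 156) or Ang II_FI 3 (441), the lower count also without Con 3 (69) and Ang II_FI 4 (64), and both counts for Ang II_FI against Con without any 1 Con library, Ang II 2, 3 or 4, or Ang II_FI 1 or 4 (35 to 80 higher). Members called higher ran from 2 to 4, from 0 to 0 and from 0 to 1. The causes of these shifts were not tested. Same-numbered libraries of different groups correlated in their deviations from group means at -0.12 to 0.13, with 3 of 12 pairs over 0.1, so the numbers were not taken to pair the libraries. With the replicate block Loxl2 was at 0.77 for Ang II against Con (edgeR adjusted p = 0.0709) and Loxl1 at 0.55 for Ang II_FI against Con (0.0963). In 11 of 24 searches a library was closest to its own number, a hint from the data and not from the design. Loxl4 had the fewest counts, 12 to 75 per library, and a pooled SD of log2 CPM within groups of 0.729.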
